A study of Mus musculus with 8 samples.

Results

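The genes examined here encode the proteasome in its constitutive form, together with the proteins that assemble, activate or inhibit it. They were taken as every protein-coding gene whose symbol is Psma, Psmb, Psmc, Psmd, Psme or Psmf followed by a digit, leaving out the immunoproteasome genes Psmb8, Psmb9 and Psmb10. The rule used the gene's name and no measured value, and it found 44 genes among the 55414 gene IDs counted. Of these, 42 are subunits, assembly chaperones or regulators. The other 2, Psmc3ip and Psme3ip1, match by name only: Psmc3ip acts in meiotic recombination, and Psme3ip1 binds the activator PA28γ.

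The proteasome breaks down proteins that carry ubiquitin chains. Its core particle is a barrel of stacked rings, in which α subunits form the outer rings and gate the entrance and β subunits form the inner rings that cut the chain. A regulatory particle, also called 19S, caps the barrel, with a base of ATPases that unfolds the substrate and a lid that removes the ubiquitin. Paneth cells secrete antimicrobial proteins from the bottom of the intestinal crypts, and a cell that makes this much secretory protein sends misfolded chains from the endoplasmic reticulum to the proteasome.

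C57BL/6J mice drank Milli-Q (ultrapure) water or Milli-Q water with 25 mM ZnSO4 for 7 days, with 4 mice in each group. All mice had the same inbred background, and the labels named no altered allele and gave neither age nor sex. Paneth cells were then sorted by fluorescence from a single cell suspension of the small intestine of each mouse, RNA was extracted, and 1 mRNA library was made per mouse. The comparison asked whether zinc in the drinking water changed gene expression in the Paneth cells. The p-values therefore measured the spread between mice, and bulk RNA of a sort cannot tell fewer cells of a type from less RNA per cell.

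Library totals ran from 20760764 to 24117111 counts. Values are given as CPM, counts relative to the library's size after TMM scaling, which allows for a few genes taking a large share of a library. Here the α-defensin genes took 27.9 to 39.8% of the counts. The 8 Paneth cell markers examined together took 43.8 to 54.1% of the counts in the water libraries and 41.9 to 54.5% in the zinc libraries. Goblet markers took 0.866 to 1.08% and 1.03 to 1.43%, stem cell markers 0.332 to 0.694% and 0.345 to 0.377%, and enterocyte, enteroendocrine, tuft and cycling markers at most 0.0383% each. Col1a1 and Acta2 were at 0 in every library. Genes known to answer zinc differed between the groups: Mt1, a metallothionein that binds zinc, was at 13.8 to 29.1 CPM in the water libraries and 189 to 425 CPM in the zinc libraries, with a log2 fold change (zinc over water) of 3.65 ± 0.38 (SE). The metallothionein Mt2 (6.15 ± 0.51) and the zinc exporter Slc30a1 (2.02 ± 0.29) rose as well, with edgeR adjusted p-values of 0.0259, 0.0198 and 0.0198 for these 3 genes.

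The regulatory sequence is shown first, because the transcription factor NRF1 (Nfe2l1) is known to bind antioxidant response elements in front of proteasome genes and raise them together. In the 250 bases before the start of the canonical transcript on GRCm39, the letters TGACNNNGC were searched on both strands. They were present in 6 of 44 members (13.6%), beside 9.67% of 21627 protein-coding genes. The windows around them are printed below on the strand of the gene, 5′ to 3′, with the matched letters, or their reverse complement, in capitals. They belong to the catalytic genes Psmb5 (chr14:54855482-54855525, minus strand) and Psmb6 (chr11:70416148-70416182, plus strand), the ATPase Psmc6 (chr14:45567028-45567088, plus strand), the lid genes Psmd7 (chr8:108315188-108315248, minus strand) and Psmd12 (chr11:107370081-107370141, plus strand), and the chaperone Psmd9 (chr5:123366196-123366252, plus strand).
Psmb5: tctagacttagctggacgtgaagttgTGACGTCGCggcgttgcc
Psmb6: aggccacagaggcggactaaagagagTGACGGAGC
Psmc6: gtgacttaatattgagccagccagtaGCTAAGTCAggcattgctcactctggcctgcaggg
Psmd7: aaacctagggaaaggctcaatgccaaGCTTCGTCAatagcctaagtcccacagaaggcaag
Psmd12: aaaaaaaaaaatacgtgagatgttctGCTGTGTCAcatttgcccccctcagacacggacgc
Psmd9: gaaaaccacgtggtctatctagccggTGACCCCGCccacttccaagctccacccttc

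Counted from the start, with -1 the base just before it, these letters began at position -9 in Psmb6 and at position -201 in Psmd12. The core letters of the metal response element, TGCACNC or TGCGCNC, which the zinc sensor MTF1 binds, were found on either strand in front of 14 of 44 members (31.8%), beside 21.9% of all coding genes. The CCAAT box was found in front of 19 (43.2%), beside 36.5%. The letters TGAC are also part of AP-1 and CREB sites, so these motifs overlap. A match is a description of the letters and not of a bound site.

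No proteasome gene was called different between the zinc and water libraries. Of the 44 members 42 had enough counts to be tested, the 2 matches by name among them. None of these 42 passed an adjusted p of 0.05 with edgeR, where 0.0834% of all 11988 tested genes did, and 1 member had an unadjusted p under 0.05, where 4.65% of all genes did. DESeq2 and limma-voom also gave 0 members past the adjusted threshold and 1 under an unadjusted 0.05. The median log2 fold change of the members was 0.04, beside 0.01 for all tested genes, and single members ran from -0.24 to 0.40. Of the 42 members 29 (69.0%) lay above 0, beside 51.9% of all genes.

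Member values were close enough to bound the change. The median standard error of a member's log2 fold change was 0.118, beside 0.170 over all genes, and the median SD of log2 CPM among the 4 mice was 0.167 in water and 0.130 in zinc, beside 0.253 and 0.212. In 40 of 42 members the 95% interval of the fold change lay within 1.5-fold in either direction, which held for 60% of all tested genes. The exceptions were the weakly expressed Psme2b and Psmc3ip. The background was not matched for level: the median tested gene was at 12.6 CPM, while the 17 regulatory particle genes ran from 31.4 to 82.4 CPM. The part of count level in the smaller errors and narrower intervals of the members was not tested. Psma8, the testis form of an α subunit, and Psmb11, the thymus form of a catalytic subunit, had 0 counts in every library. A count of 0, taken as at most 3 counts, permits 0.115 to 0.188 CPM depending on the library (counting error only).

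**Figure D1:**
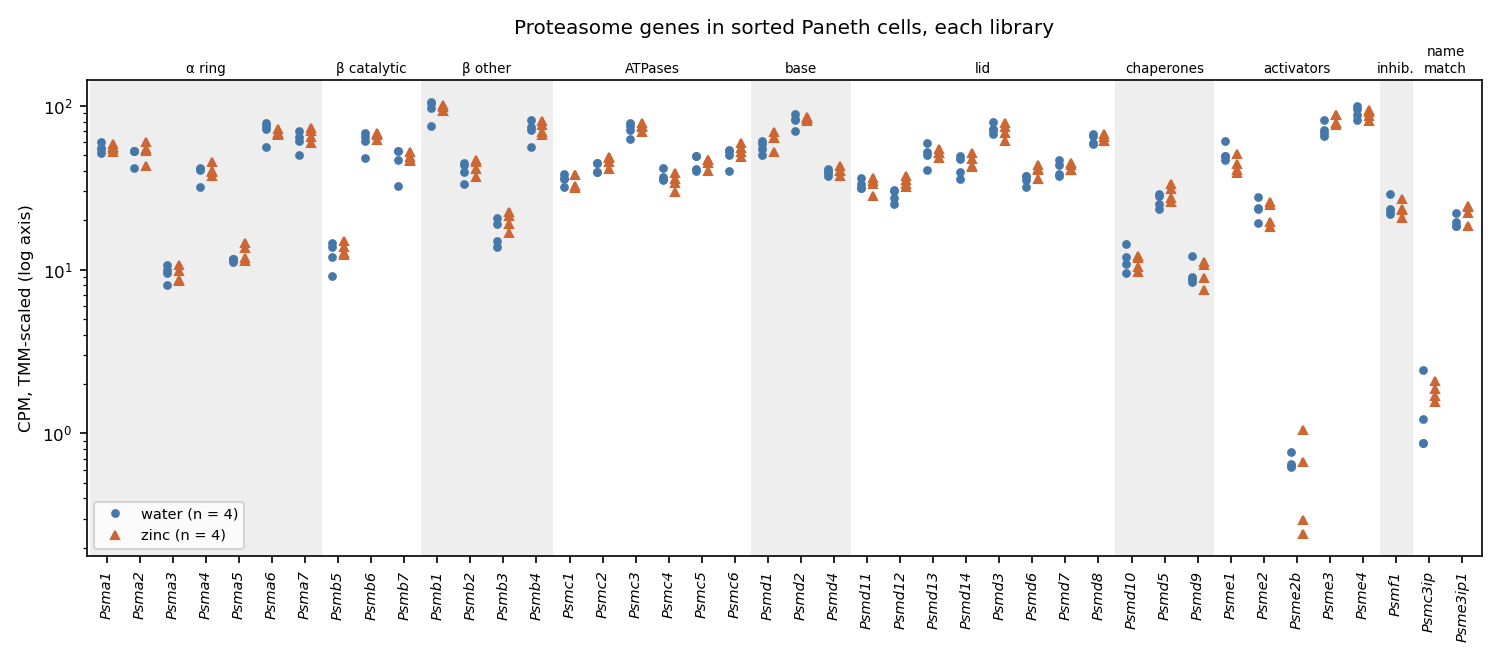
Level of each of the 42 tested members in each library, in TMM-scaled CPM on a log axis, grouped by role, with circles for the 4 water mice and triangles for the 4 zinc mice. The groups overlap in every member except Psmd12, where the 4 zinc libraries (32.01 to 37.5 CPM) lie above the 4 water libraries (25.1 to 30.5 CPM).

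The 14 core particle genes, 7 for the α ring and 7 for the β ring, had a median log2 fold change of 0.07, and 11 of them lay above 0. None passed the adjusted threshold and the smallest unadjusted p was 0.181, in Psmb3. The constitutive catalytic subunits were read first, since they carry the 3 cutting activities. Psmb5, the chymotrypsin-like subunit β5, was at 14.6, 13.7, 9.18 and 11.9 CPM in the water libraries and 13.7, 12.6, 12.2 and 14.9 CPM in the zinc libraries. The zinc values lay inside the range that the water values reached apart from the highest zinc library, and the water libraries were the wider group. The log2 fold change was 0.12 ± 0.16 (SE, edgeR, 4 against 4), with a 95% interval of the fold from 0.861 to 1.37.

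Psmb6, the caspase-like subunit β1, was at 61.4, 64.6, 48.4 and 68.2 CPM in water and 66.9, 61.8, 68.5 and 66.7 CPM in zinc. Psmb7, the trypsin-like subunit β2, was at 52.7, 46.4, 32.4 and 52.7 CPM in water and 46.3, 47.0, 49.0 and 52.5 CPM in zinc. In both genes water replicate 3 was the lowest of the 8 libraries and the groups overlapped. The log2 fold change was 0.12 ± 0.12 in Psmb6 and 0.08 ± 0.14 in Psmb7, and neither passed the test. Psmb7 shares exon bases with Nek6 on the other strand, and the sources used here do not say whether the counting used strand.

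All 7 β ring genes had a fitted log2 fold change above 0, from 0.02 in Psmb1 to 0.21 in Psmb3, and none passed the test. Psmb3, a β subunit that does not cut, was at 14.95, 20.5, 13.8 and 19.05 CPM in water and 16.7, 18.97, 22.3 and 21.2 CPM in zinc. Its groups overlapped (0.21 ± 0.15, edgeR unadjusted p = 0.181, adjusted p = 0.998). In the α ring the median was 0.06 and 4 of 7 genes lay above 0. Psma5, the α5 subunit, had the smallest p there, with 11.1 to 11.6 CPM in water and 11.3, 11.8, 14.6 and 13.5 CPM in zinc (0.16 ± 0.14, edgeR adjusted p = 0.998). The 4 water libraries of Psma5 lay within a narrow band and the zinc libraries spread upwards from it.

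The 17 genes of the regulatory particle had a median log2 fold change of 0.03, and 13 of them lay above 0. The ATPases that form the unfolding ring showed a median of 0.02, with 3 of 6 above 0, and the smallest p was in Psmc6 (0.14 ± 0.12, edgeR adjusted p = 0.998). The non-ATPase base had a median of 0.04. Psmd1, the large scaffold of the base, was at 49.8 to 60.7 CPM in water and 52.1 to 69.1 CPM in zinc (0.15 ± 0.12). Psmd4, a receptor for ubiquitin chains, was at 37.4 to 41.2 CPM in water and 37.5 to 42.6 CPM in zinc, with a 95% interval of the fold from 0.874 to 1.18.

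Among the 8 lid genes, with a median of 0.03, Psmd12 was the single member with groups that did not overlap, where 2.84% of all tested genes had such groups and 1.24% had them with zinc the higher. Psmd12 (ENSMUSG00000020720, chr11:107370246-107395206, plus strand, GRCm39) encodes a scaffold subunit of the lid and is one of the genes whose upstream window is printed above. It was at 30.02, 30.5, 27.5 and 25.1 CPM in the water libraries and 33.3, 32.01, 37.5 and 35.2 CPM in the zinc libraries. Every zinc library lay above every water library, but with scaling by library totals alone the groups of Psmd12 overlapped. The means were 28.3 ± 2.51 and 34.5 ± 2.39 CPM (SD, n = 4), a 1.22-fold difference with a 95% interval of 1.04 to 1.44 and a log2 fold change of 0.29 ± 0.11 (SE). Its unadjusted edgeR p was 0.0205 and its adjusted p 0.998, so it did not pass the threshold. The unadjusted p was 0.0702 without water replicate 4 and 0.0741 without zinc replicate 3.

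Psmd14, the lid's own deubiquitinase, was at 47.5, 49.7, 35.8 and 39.2 CPM in water and 42.6, 42.6, 51.6 and 47.0 CPM in zinc (0.10 ± 0.13). Its groups overlapped widely. Of the 6 members with the letters TGACNNNGC upstream, all had a fitted log2 fold change above 0, with a median of 0.12 beside 0.04 for the 36 tested members without them. The range of those 6, from 0.003 in Psmd9 to 0.29 in Psmd12, lay inside that of the others (-0.24 to 0.40). With 1 library left out the sign was not stable in Psmb5, Psmd7 and Psmd9, whose lowest values were -0.0034, -0.02 and -0.09. Psmb6, Psmc6 and Psmd12 stayed above 0, with lowest values of 0.02, 0.04 and 0.23.

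The 5 activators, which bind the ends of the barrel in place of the regulatory particle, had a median of -0.09, with 4 of 5 below 0. Among these 4, Psme2b was weakly counted, at a mean of 0.62 CPM (-0.21 ± 0.54). Psme2 gave the median itself, and 51.6% of the 75-base windows of its canonical transcript also occur elsewhere in GRCm39. Psme1 encodes PA28α, which interferon raises together with the immunoproteasome. It was at 49.2, 49.5, 46.6 and 61.0 CPM in water and 40.5, 39.2, 44.1 and 50.6 CPM in zinc. Zinc replicates 1 to 3 lay below all water libraries and zinc replicate 4 lay among them (-0.24 ± 0.12, edgeR unadjusted p = 0.0624, adjusted p = 0.998). Psme1 shares exon bases with Emc9 on the other strand.

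Its partner Psme2 (PA28β) had a log2 fold change of -0.09 ± 0.15, and the nuclear activator Psme3 (PA28γ), chosen after its values were seen, lay on the other side of 0 at 0.21 ± 0.11 (unadjusted p = 0.0725 with edgeR). Psme4, the activator PA200, was among the most highly counted members, at 82.0 to 99.6 CPM in water and 81.1 to 94.7 CPM in zinc (-0.04 ± 0.11). The inhibitor Psmf1 had a log2 fold change of -0.04. The chaperones that build the regulatory particle, Psmd5, Psmd9 and Psmd10, had a median of 0.003, and Psmd5 had the smallest p among them (0.15 ± 0.12, edgeR adjusted p = 0.998). Psme3ip1, a match by name only, was at 18.5 to 22.2 CPM in water and 18.5 to 24.4 CPM in zinc (0.18 ± 0.13).

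**Figure D2:**
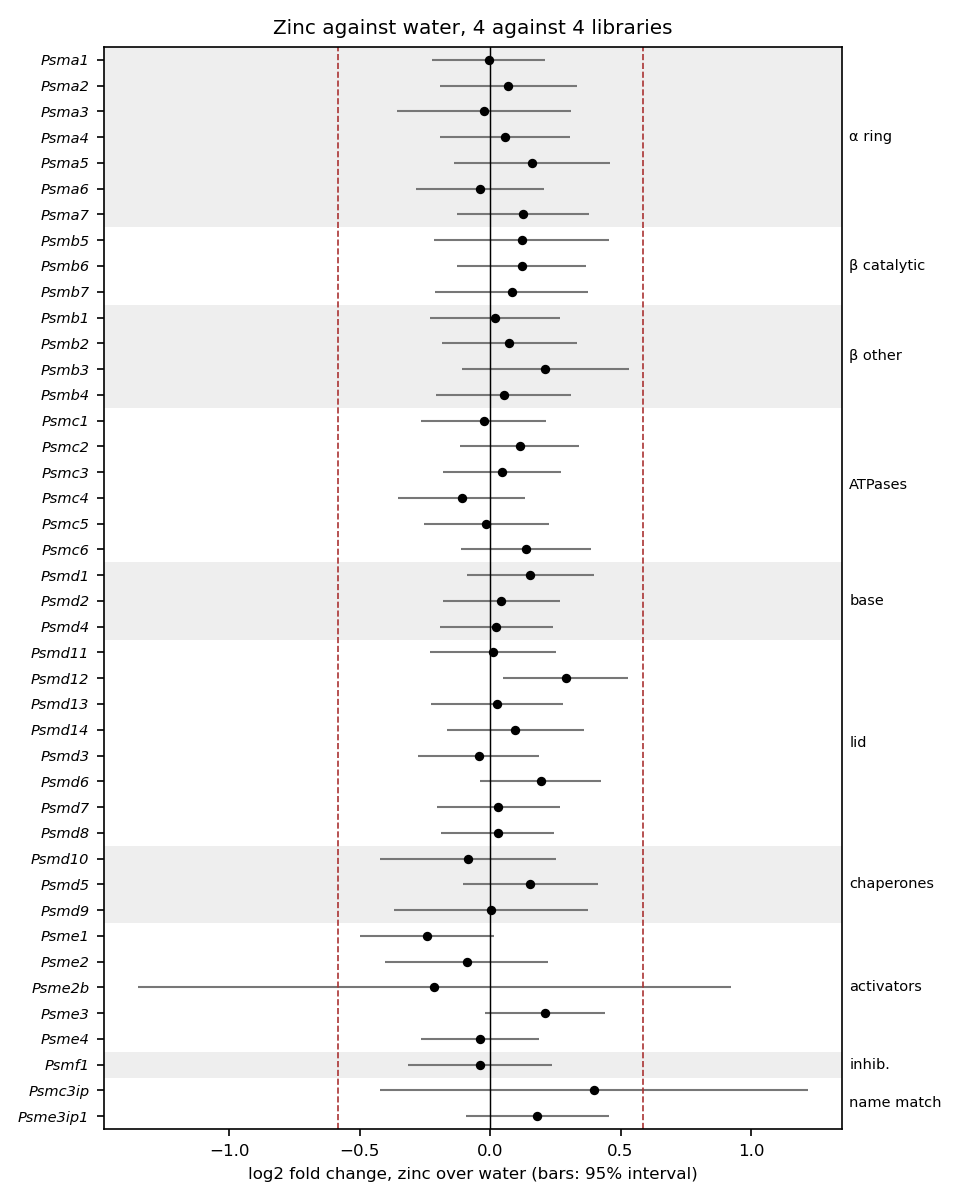
Log2 fold change, zinc over water, of the 42 tested members with the 95% interval of the edgeR fit as bars, dashed lines marking 1.5-fold. The points lie between -0.24 and 0.40, and the intervals of 40 members lie within the dashed lines.

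Summed over all members, the proteasome transcripts came to 1796 ± 151 CPM in water and 1857 ± 93.1 CPM in zinc (SD, n = 4), a log2 ratio of 0.05. Their share of all counts ran from 0.139% (Wilson 95% interval 0.137 to 0.141%, counting error only) in zinc replicate 1 to 0.240% (0.238 to 0.242%) in zinc replicate 4. The α-defensin share was 38.5% and 27.9% in the same 2 libraries. The summed core particle genes stood to the summed regulatory particle genes at 0.775 ± 0.061 in water and 0.779 ± 0.031 in zinc. This ratio of summed transcripts, which is not corrected for length, thus differed between groups by less than the spread between mice.

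The members departed most as a set in 1 mouse. In water replicate 3 the median member lay 0.23 below its own mean over the 8 libraries on the log2 scale, while the median of all genes lay 0.01 above. In the other 7 libraries the median member lay between -0.05 and 0.11. All 14 core particle genes were at their lowest of the 8 libraries there, as were 10 of 17 regulatory particle genes and 26 of 42 members in all (61.9%), where 16.0% of all genes were. Across roles the median deviation in that library was -0.47 for the catalytic β genes, -0.35 for the other β genes, -0.29 for the α genes, -0.17 for the lid and -0.14 for the ATPases. The activators lay at -0.03, with 1 of 5 at its lowest, and the inhibitor Psmf1 at 0.29, its highest of the 8 libraries. The summed core genes stood at 519 CPM there and at 669 to 696 CPM in the other water libraries. This library was singled out after its values were seen, so these counts are a description with no test.

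**Figure D3:**
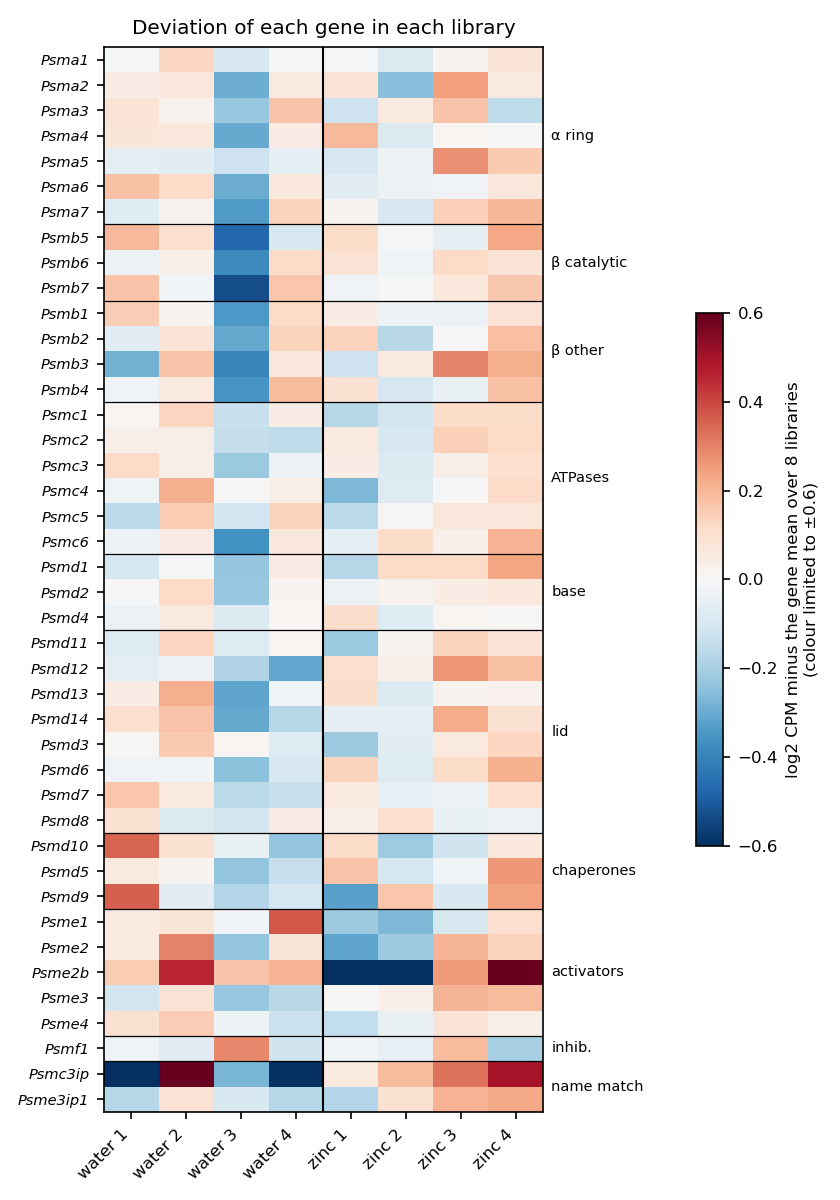
Log2 CPM of each tested member in each library minus the member's mean over the 8 libraries, with water replicates on the left of the black line and zinc replicates on the right. The column of water replicate 3 is blue through the α and β rings, with a median deviation of -0.47 in the catalytic β genes.

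The sign of the members' and the core genes' medians rested on that mouse. Without water replicate 3 the median log2 fold change of the members was -0.02 in place of 0.04, that of the core genes was -0.02, and 15 of 42 members lay above 0 in place of 29. With any other single library left out the median of the members lay between 0.02 and 0.08. Among the catalytic genes, without water replicate 3 Psmb5 lay at -0.0034, Psmb7 at -0.06 and Psmb6 at 0.02. Psma5 (0.14) and Psmb3 (0.12) stayed above 0 as well. Water replicate 3 had 22194596 counts, inside the range of the other libraries, and its Paneth marker share was 49.4%, also inside their range. Its goblet marker share was the lowest of the 8 libraries, at 0.866%, and its enteroendocrine marker share the highest, at 0.0112% beside 0.0031 to 0.0083%. The part of cell composition in this pattern was not tested. The list headed transcription of proteasome genes (Nfe2l1, Nfe2l2, Ddi2, Ngly1, Akirin2 and Midn) had a median deviation of 0.16 there, and none of the 6 was at its lowest. The heading is loose, since Midn acts in bringing proteins to the proteasome, as given below. Other pathway lists lay below their means there. The median deviation was -0.46 for the 2 ubiquitin activation genes, both at their lowest, and -0.26 for the core particle assembly genes. It was -0.24 for the 26S subunits under other symbols with the deubiquitinases, and 0.03 for the other proteasome-bound proteins. The low values in this library were thus not particular to the members.

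Subunits of 1 ring are present in equal number in the finished particle, so their transcript levels were set side by side per length. Levels are given as TPM, here counts per kilobase of merged exons scaled to the same total in every library. In the α ring the level ran from 0.886 ± 0.241 TPM for Psma3 to 31.2 ± 8.38 TPM for Psma6 (mean ± SD over the 8 libraries), a 35.2-fold range. In the β ring it ran from 4.41 ± 1.37 TPM for Psmb2 to 28.8 ± 8.38 TPM for Psmb6, a 6.54-fold range. The range depended on the length used. With the longest coding transcript it was 20.4-fold and 4.98-fold, and with the canonical transcript, an alternative chosen after seeing the data, 25.9-fold and 8.18-fold. The ATPases ran over a 3.59-fold range from Psmc2 to Psmc3, and the lid over a 4.43-fold range from Psmd11 to Psmd8. The ranges hardly differed between the groups, at 34.9 in water and 35.4 in zinc for the α ring and 6.43 and 6.65 for the β ring.

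Some of the lowest members have identical copies elsewhere in the genome. Proteasome genes have processed pseudogenes, and reads that fit several places may be dropped or shared in counting. Of the 75-base windows of the canonical transcript, the share that also occurs elsewhere in GRCm39 was 20.5% for Psma3, 37.5% for Psma5, 39% for Psmb3 and 41.9% for Psmb5, but 0% for both Psma6 and Psmb6. Of the 31 core and regulatory particle genes, the 7 with at least 10% of windows elsewhere had a median of 6.37 TPM, beside 10.5 TPM for the other 24. Psmd2, at 16.3 TPM with 14.8% of windows elsewhere, was a high member among the 7. Among the 4 α genes under 10% the range was 3.00-fold in place of 35.2-fold (3.66 and 4.67 with the longest coding and the canonical transcript). Among the 5 β genes under 10% it was 6.54-fold, the same as over all 7. The sources used here do not say how reads with several places were counted. The levels of these genes are therefore uncertain, and the part of copies in the ranges was not tested.

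**Figure D4:**
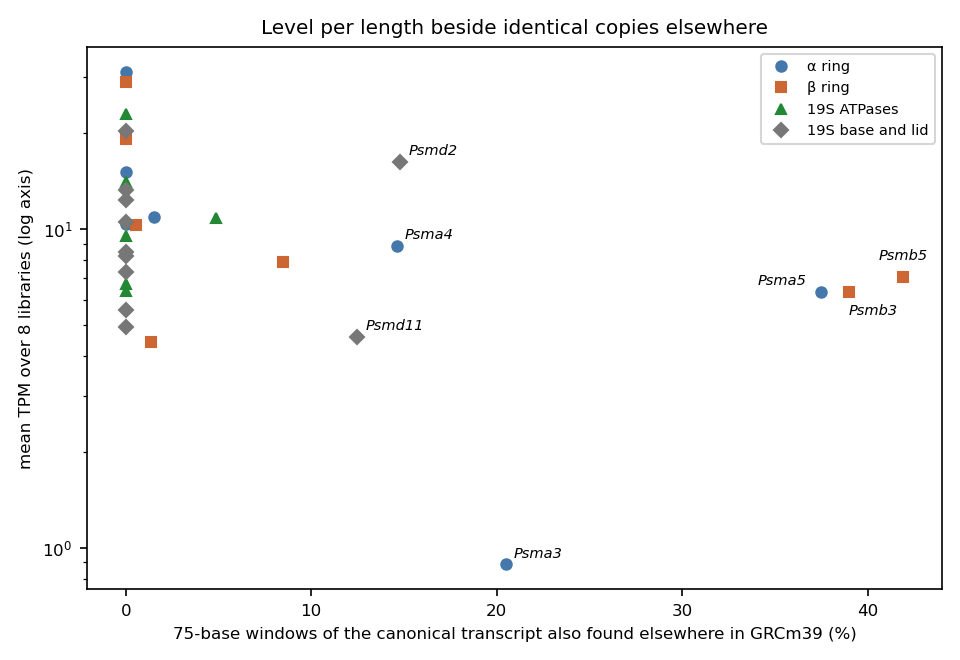
Mean level of each core and regulatory particle gene over the 8 libraries, in TPM on a log axis, against the share of 75-base windows of its canonical transcript found elsewhere in GRCm39. Psma3 (20.5% of windows elsewhere) is the lowest at 0.886 TPM, and the members near 0% spread from 4.41 to 31.2 TPM.

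The other genes of the ubiquitin and proteasome pathway, 37 in all and all tested, gave 0 past the adjusted threshold and 3 with an unadjusted edgeR p under 0.05, of which 2 were higher and 1 lower in zinc. Over all genes 1.84% were higher and 2.81% lower by that measure. Their median log2 fold change was 0.09, and 26 lay above 0. Uba6, which activates ubiquitin and the ubiquitin-like FAT10, was at 17.3, 21.7, 11.7 and 17.2 CPM in water and 24.3, 22.4, 25.7 and 25.0 CPM in zinc. Its groups did not overlap, and the log2 fold change was 0.52 ± 0.16 (edgeR unadjusted p = 0.00414, adjusted p = 0.660). With each library left out in turn the unadjusted p of Uba6 stayed at or under 0.0140. Ubqln2, a shuttle that brings ubiquitinated proteins to the proteasome, was at 28.5 to 40.1 CPM in water and 38.8 to 48.8 CPM in zinc (0.31 ± 0.13, unadjusted p = 0.0277, adjusted p = 0.998 with edgeR). Ube3c, a ubiquitin ligase that rides on the proteasome, was at 38.9 to 41.0 CPM in water and 42.2 to 52.4 CPM in zinc, so its groups were also apart (0.22 ± 0.11, unadjusted p = 0.062 with edgeR).

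In the remaining lists, the immunoproteasome apart, no gene had an unadjusted p under 0.05. Uchl5, a deubiquitinase of the regulatory particle, had a log2 fold change of 0.26 ± 0.15, and Psmg1, a chaperone of the core particle, had one of -0.13 ± 0.16. Midn encodes midnolin, which brings nuclear proteins to the proteasome without ubiquitin. It had the smallest p of the list headed transcription of proteasome genes (-0.23 ± 0.14, edgeR adjusted p = 0.998).

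Immunoproteasome genes encode inducible β subunits that take the place of the constitutive catalytic subunits as new particles form. All 3 had a fitted log2 fold change below 0. Psmb8 (β5i) was at 20.8, 17.6, 14 and 20.2 CPM in water and 9.92, 8.59, 17.7 and 14.1 CPM in zinc (-0.52 ± 0.21, unadjusted p = 0.0231, adjusted p = 0.998 with edgeR). Zinc replicates 3 and 4 lay within the range of the water libraries. Psmb9 (β1i) had -0.43 ± 0.20 and Psmb10 (β2i) -0.29 ± 0.14 (edgeR unadjusted p = 0.0518 and 0.0617, adjusted p = 0.998 for both).

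Within each mouse these genes were then set against the constitutive gene they replace, as a ratio of counts, in a test chosen after the values were seen. The ratio of Psmb8 to Psmb5 was 1.42, 1.29, 1.53 and 1.70 in water and 0.723, 0.679, 1.45 and 0.945 in zinc. In 3 of the 4 zinc mice it was below 1, and the log2 difference was -0.70 (exact two-sided permutation p = 0.0857). The ratio of Psmb9 to Psmb6 was 0.170 ± 0.027 in water and 0.116 ± 0.023 in zinc (SD, n = 4), with a log2 difference of -0.57 (exact permutation p = 0.0571). The ratio of Psmb10 to Psmb7 was 0.790, 0.821, 0.906 and 0.854 in water and 0.738, 0.528, 0.717 and 0.613 in zinc.

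Every zinc mouse lay below every water mouse in the ratio of Psmb10 to Psmb7, with a log2 difference of -0.39. The CPM of Psmb10 itself overlapped, at 29.4 to 44.9 in water and 24.8 to 35.2 in zinc. The ratio was highest in water replicate 3, at 0.906, where the denominator Psmb7 was at its lowest of the 8 libraries (32.4 CPM). The part of that low denominator in the separation was not tested. The exact permutation p of this ratio was 0.0286, the smallest that 4 against 4 mice can give. With Benjamini-Hochberg adjustment over the 3 ratios every p was 0.0857, so none passed 0.05. The 5 immune cell markers examined (Ptprc, Cd3e, Cd79a, C1qa and Jchain) together had 42, 24, 18 and 32 counts in the water libraries and 3, 1, 4 and 1 in the zinc libraries, with Cd3e at 0 throughout. These sums rested on different genes: C1qa gave 42 and 23 counts in water replicates 1 and 2. Ptprc gave 32 in water replicate 4, where C1qa was at 0. Psmb8 had 331 to 529 counts in water and 167 to 447 in zinc, and the part of immune cells in these ratios was not tested.

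**Figure D5:**
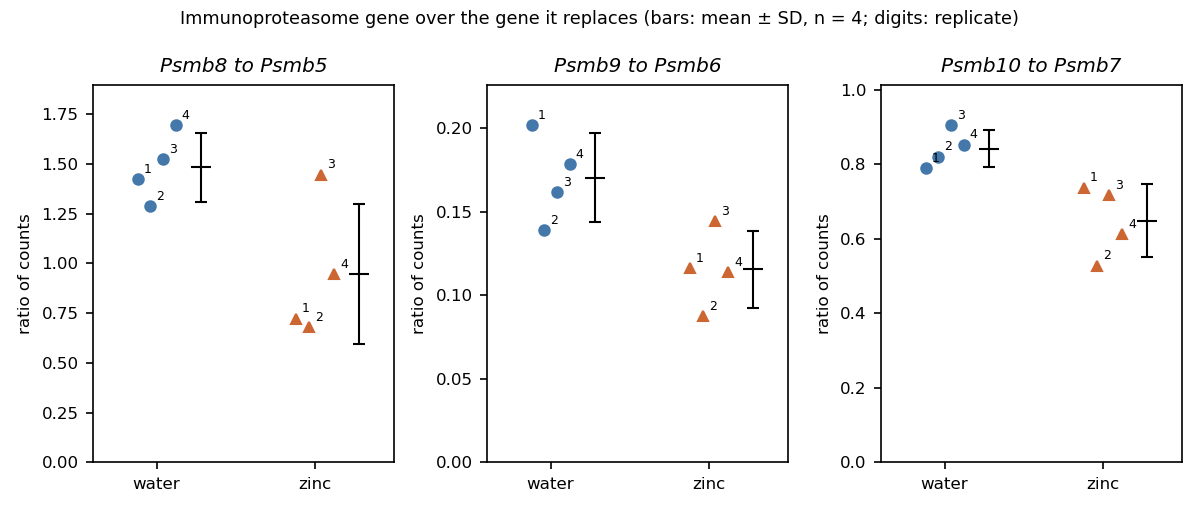
Ratio of counts of each immunoproteasome gene to the constitutive catalytic gene it replaces, with 1 point per mouse numbered by replicate and bars for mean ± SD (n = 4 per group). The zinc mice lie between 0.528 and 0.738 and the water mice between 0.790 and 0.906 for Psmb10 to Psmb7, while in the other 2 panels zinc replicate 3 lies among the water mice.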

How the data were processed

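The authors deposited 1 table of raw read counts per Ensembl gene ID, with no normalization. The submitters' processing notes name FastQC 0.12.0, STAR 2.7.0a, DESeq2 and mm39. Counting program, strand setting and treatment of reads with several places: not given in the sources used here. Symbols, exons and promoters came from GENCODE M39 on GRCm39, which matched 54749 of 55414 IDs. The counts were filtered with filterByExpr (minimum count 10), scaled with TMM and tested with edgeR 4.0.16 (robust quasi-likelihood F test, treatment only), with Benjamini-Hochberg adjustment over 11988 genes (R 4.3.3). DESeq2 1.42.0, limma 3.58.1, other scalings, other filters, a replicate block and each library left out were alternatives. On simulated counts for 11866 genes of this comparison, 76% of 2-fold and 92% of 4-fold changes were recovered. No pair of libraries within a group agreed within sampling noise, and pairs across the groups were not checked. Genes named were those with the smallest p in each role, with groups apart, at the ends of a ring's levels or failing the filter, and a few subunits named always. The members and lists were chosen with earlier results of these data known. Some listed pathway genes are not reported here by name.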

Additional observations from a re-analysis of the deposited data

Results flagged for a closer look

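In 70 groups of 4 libraries, 3 held a library set apart from the other 3 by Dixon's criterion, which chance alone meets in about 1 of 20 groups. Psma5 was at 11.1 CPM in water replicate 3 and at 11.6 CPM in the other water libraries, a small distance beside a very narrow spread. The summed core particle genes were at 519 CPM in water replicate 3 and at 669 to 696 CPM in the other water libraries. Ube3c was at 41.0 CPM in water replicate 2 and at 38.9 to 39.3 CPM in the other water libraries.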

How the results depend on the processing

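With RLE factors, library totals, α-defensin genes left out, other filters, DESeq2 and limma-voom, 0 members and 0 other pathway genes passed the adjusted threshold, as with each library left out. Replicate numbers were not taken to pair the mice, since only 3 of 4 correlations of same-numbered deviations were over 0.1 (0.23, 5.5e-05, 0.13 and 0.26). Water replicates 1, 3 and 4, but not 2, correlated best with their own number, and the α-defensin shares of a number lay close (39.8 and 38.5%, 33.9 and 34.0%, 33.2 and 33.1%, 29.2 and 27.9%). With the number as a block, 0 members passed and the median log2 fold change was 0.05. In the same blocked fit 3 members and 9 other pathway genes fell under an unadjusted 0.05, in place of 1 and 3. Over all 11988 tested genes the blocked fit had 937 under it, in place of 558, so such calls rose across the whole table. Psmb8, Psmb9 and Psmb10 were among the 9, with edgeR adjusted p = 0.591, 0.609 and 0.618 (unadjusted p = 0.0309, 0.0350 and 0.0429). Scaling by library totals left 0 members with groups apart in place of 1. With each library left out the median ran from -0.02 to 0.08. With the longest coding transcript as the length the ranges were 20.4-fold (α ring) and 4.98-fold (β ring), and with the canonical transcript 25.9-fold and 8.18-fold. Of 248 alternative fits of the 31 tested genes chosen by the naming rule above, 1 turned direction, Psmd11 at -0.00028 with a mean count of at least 50. With 1 library left out, 9 of these 31 genes turned direction: Psma3 (-0.104 to 0.029), Psma6 (-0.138 to 0.013), Psmb2 (-0.015 to 0.137), Psmb5 (-0.0034 to 0.205), Psmb7 (-0.060 to 0.151), Psmc3 (-0.021 to 0.092), Psmd11 (-0.040 to 0.076), Psmd4 (-0.010 to 0.053) and Psmd8 (-0.0080 to 0.062). Genes outside that rule turned as well, among them Psmd7 (-0.021 to 0.093), Psmd9 (-0.086 to 0.129), Psmb1 (-0.086 to 0.070), Psmd10 (-0.176 to 0.021) and Psmf1 (-0.123 to 0.054). With 1 library left out, the log2 differences of the ratios, chosen after seeing the data, ran from -0.93 to -0.57 (Psmb8 to Psmb5), -0.68 to -0.44 (Psmb9 to Psmb6) and -0.45 to -0.29 (Psmb10 to Psmb7). For Psmb10 to Psmb7 the exact permutation p was 0.0286 to 0.0857, and above 0.05 without any 1 water library. The zinc and water mice stayed apart in that ratio with any 1 mouse left out. Only 35 assignments then remain, so the exact p moves in coarse steps. Recovery of changes under 2-fold was not simulated.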
